A study of Mus musculus with 9 samples.

Results

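The comparison described here is between 3 libraries of LPS-treated Irg1 knockout macrophages given itaconate and 3 of LPS-treated Irg1 knockout macrophages without it, which were taken by their labels and together make up 6 of the 9 libraries of the series. All 9 libraries were made from mouse bone marrow-derived macrophages (BMDM) of the strain C57BL/6N, grown from mice of 6 to 16 weeks and treated with 100 ng/mL LPS, a bacterial lipopolysaccharide that activates macrophages through TLR4, for 24 h. The 6 libraries are labelled with the genotype Irg1-/-, and the 3 labelled Irg1KO+ITA also received itaconate at a concentration of 1 mM from 4 h into the LPS treatment. The other 3 libraries, labelled WT, received LPS only and entered the statistical fit. No untreated macrophages are among the 9, so every value is a level after LPS. Nothing in the labels states that replicates are separate animals or cultures. The p-values therefore measure the spread between these libraries, which may be technical. The deleted part of Irg1 is not stated either, so a read of the gene may lie outside it.

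Irg1, now named Acod1, encodes the mitochondrial enzyme that decarboxylates cis-aconitate to itaconate, and it is among the genes that LPS induces in macrophages. Itaconate inhibits succinate dehydrogenase, is activated to itaconyl-CoA and is a weak electrophile. It and its ester derivatives have been studied for effects on the antioxidant factor NRF2, on ATF3 and IκBζ, and on interferon and inflammasome responses. Adding itaconate to cells that lack the enzyme asks which transcripts respond to the metabolite itself.

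Messenger RNA was primed with oligo-dT carrying a sample barcode, barcoded samples were pooled, and the authors deposited read counts per gene. The 3 knockout libraries held 20430359, 12717604 and 10200503 reads in genes, and the 3 itaconate libraries 10787063, 9466333 and 10374213. The name of each column in the count table gives a pool number and a barcode of 8 bases. These barcodes are shown because 1 of them recurs outside the comparison.
Irg1KO replicate 1, pool 1: tccttggt
Irg1KO replicate 2, pool 1: ttgagcct
Irg1KO replicate 3, pool 2: aagtagag
Irg1KO+ITA replicate 1, pool 2: aggatcta
Irg1KO+ITA replicate 2, pool 3: gcacatct
Irg1KO+ITA replicate 3, pool 4: cagcaagg
The 3 WT libraries were all in pool 1, and WT replicate 3 has the same barcode as itaconate replicate 2. Only pool 2 holds a library of each group, knockout replicate 3 and itaconate replicate 1. In the other pools the pool and the treatment cannot be told apart.

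Acod1 (ENSMUSG00000022126 in the mouse annotation; chromosome 14, 103046977-103056573, plus strand, GRCm38) was read first because it checks the labels. The libraries labelled knockout held 154, 170 and 44920 Acod1 reads. Those labelled itaconate held 94, 8 and 60716. Replicate 3 of each group was therefore high, and the other 4 libraries were low. The WT libraries held 94, 117 and 31169 reads. Acod1 went against the label in knockout replicate 3 and itaconate replicate 3, whose reads were above those of the high WT library, and in WT replicates 1 and 2, which were as low as the low knockout libraries. Between the groups as labelled, Acod1 differed by a log2 fold change of 0.53 ± 2.35 (SE; edgeR unadjusted p = 0.824). The pair in pool 2 also differed in Acod1, with 44920 reads in knockout replicate 3 and 94 in itaconate replicate 1, so that treatment and Acod1 level cannot be told apart in the pool 2 values below. Groups below are as labelled, directions are those between the labelled groups, and results are also given without the libraries whose Acod1 reads contradict their label.

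**Figure D1:**
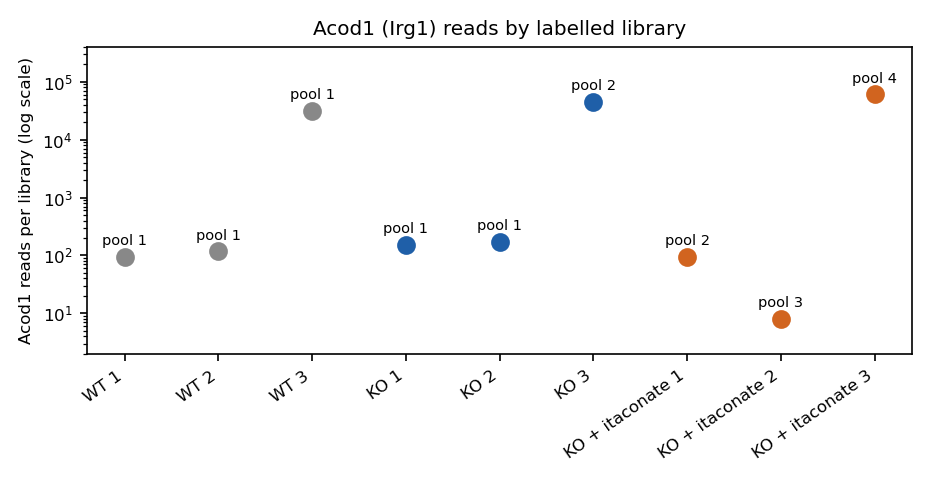
Acod1 reads in each of the 9 libraries (vertical axis, reads on a log scale; horizontal axis, library as labelled; the number beside each point is its pool). Replicate 3 is the high library in every group, with 31169 to 60716 reads, and the other 6 libraries have 8 to 170.

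The 6 libraries did not separate by treatment as a whole. Across genes, the mean correlation of log2 levels was 0.961 between knockout libraries (3 pairs), 0.940 between itaconate libraries (3 pairs) and 0.948 between groups (9 pairs). Itaconate replicate 3 stood farthest from the other 5, with a mean correlation of 0.931 against 0.946 to 0.957 for each of the rest. For 2388 genes its level exceeded those of the other 5, for 3031 genes it was below them, and it had 33.67% of its reads outside annotated genes against 23.13% to 28.35% in the other 5.

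No gene changed at an adjusted p under 0.05 in edgeR's quasi-likelihood test across all genes (0 of 10781 tested, 0%; smallest adjusted p = 0.507). An unadjusted p below 0.05 was reached by 895 genes (8.3%), with 452 higher with itaconate (4.19% of those tested) and 443 lower (4.11%). Scaling by total gene reads alone in place of trimmed-mean (TMM) factors moved that split to 325 higher and 601 lower. The median log2 fold change over all genes was -0.02, the median absolute change 0.309 and the median standard error 0.353. In 605 genes (5.61%) the 3 itaconate libraries were all above the 3 knockout libraries, and in 570 (5.29%) they were all below. By DESeq2, 12 genes passed (0.111%), of which 4 were higher (0.0371%) and 8 lower (0.0742%). By limma-voom 0 passed, with 930 genes at an unadjusted p under 0.05.

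The number of calls turned on which libraries entered. Leaving out the 4 libraries whose Acod1 reads contradict their label gave 217 calls of 11342 genes (1.91%), 56 higher (0.494%) and 161 lower (1.42%). Leaving out only knockout replicate 3 and itaconate replicate 3, which compares the same 2 knockout with the same 2 itaconate libraries but keeps all of WT in the spread, gave 0 calls (smallest adjusted p = 0.0544), with 691 genes higher and 1077 lower at an unadjusted p under 0.05. Of the 217 genes, 131 had an unadjusted p under 0.05 over all libraries. Without itaconate replicate 1 there were 6 calls (0.0544%), all higher, of which Slit2 and Fli1 were also DESeq2 calls. With the pool as a term, which leaves only knockout replicate 3 against itaconate replicate 1 and takes the spread from the WT and knockout libraries of pool 1, 552 genes had an unadjusted p under 0.05, and 97 of them were among the 895.

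**Figure D2:**
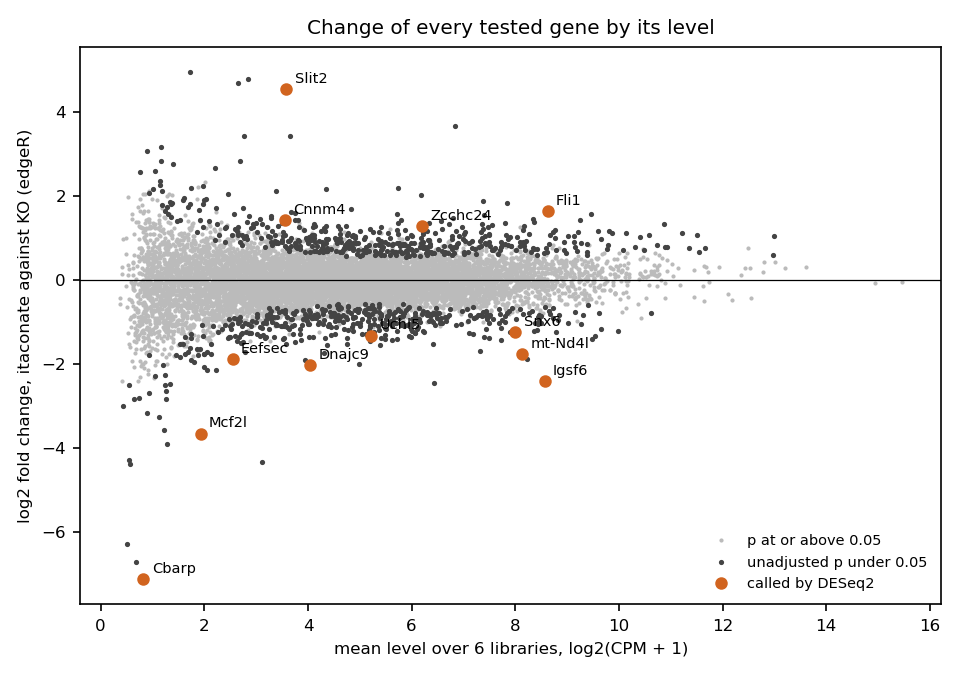
Log2 fold change of each of the 10781 tested genes, itaconate against knockout (vertical axis), by its mean level over the 6 libraries (horizontal axis, log2 of CPM plus 1). Grey points have an unadjusted p at or above 0.05, dark points are the 895 below it, and the 12 genes called by DESeq2 are orange and named, 4 of them above 0 and 8 below.

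Fli1, an ETS transcription factor of blood and endothelial cells (chromosome 9, 32422204-32542861, minus strand), had the smallest p among genes that were higher with itaconate. Its levels in the knockout libraries were 163, 164 and 247 CPM (reads per 1000000 gene reads, TMM-scaled, here and below), and in the itaconate libraries 348, 734 and 712. Every itaconate library was above every knockout library, and the WT libraries (212 to 223) lay within the knockout range. The log2 fold change was 1.64 ± 0.32 (SE), a 3.13-fold difference (edgeR unadjusted p = 0.000121, adjusted p = 0.507; DESeq2 adjusted p = 0.00354). It was 1.70 without knockout and itaconate replicates 3, and 0.50 with the pool as a term.

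Slit2, a secreted ligand of ROBO receptors, was near its detection limit in knockout libraries, at 0.929, 0.832 and 0.886 CPM, and reached 1.76, 8.88 and 52.8 CPM with itaconate. Most of its 23.6-fold difference came from itaconate replicate 3, without which the log2 fold change was 2.55 in place of 4.56. Cnnm4, a magnesium transporter, was at 4.40, 5.90 and 7.38 CPM in knockout and 13.8, 17.1 and 16.3 CPM with itaconate (1.42 ± 0.33; DESeq2 adjusted p = 0.0488). Zcchc24 was at 39.8, 45.9 and 40.7 against 90.2, 153 and 67.4 CPM (1.30 ± 0.31; DESeq2 adjusted p = 0.0488). These 3 genes and Fli1 are the DESeq2 calls on the higher side.

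By the rule for named genes, the 12 non-overlapping genes of at least 10 CPM with the smallest p were taken on each side, out of 455 higher and 337 lower genes that qualified. Besides the 4 above, the higher side held Pde4a, a cAMP phosphodiesterase, Marcks, an actin-binding substrate of protein kinase C, Irf2bp2, a transcriptional corepressor that binds IRF2, and the RNA-binding proteins Rbm14 and Rbfox2. It also held Lsm11, a part of the U7 snRNP that processes histone transcripts, Atr, a kinase of the DNA damage checkpoint, and Susd6. Marcks was at 1500, 1648 and 2501 CPM in knockout and 3758, 3694 and 4438 CPM with itaconate (1.07 ± 0.27). Irf2bp2 was at 252, 243 and 499 CPM against 576, 806 and 1283 CPM (1.42 ± 0.37). Lsm11 had the least spread, with 16.3, 14.1 and 15.8 CPM against 31.6, 28.5 and 30.9 CPM (0.98 ± 0.25). Atr and Susd6 leaned on itaconate replicate 3: without it their log2 fold changes were 0.88 in place of 1.71 and 1.20 in place of 1.83. Slit2, Cnnm4, Rbfox2 and Rbm14 had knockout means below 10 CPM (0.882, 5.89, 6.25 and 7.74). They met the limit through the itaconate libraries. On the lower side Dnajc9 and Rbm19, with itaconate means of 6.07 and 9.10 CPM, met it through the knockout libraries.

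Snx6 (chromosome 12, 54746349-54795703, minus strand) is a sorting nexin of the retromer, which carries receptors from endosomes back to the Golgi. It had the smallest p of the 12 lower genes, while Cbarp, Eefsec and Mcf2l, which had few reads, had smaller ones. Its levels were 364, 317 and 397 CPM in knockout and 115, 173 and 168 CPM with itaconate. The groups were far apart, and the WT libraries (134 to 164) lay among the itaconate values. The log2 fold change was -1.24 ± 0.27, a 2.36-fold lower level (edgeR unadjusted p = 0.000353, adjusted p = 0.507; DESeq2 adjusted p = 0.0116). It was -1.26 without replicate 3 of each group and -1.78 with the pool as a term.

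Other lower genes differed more but were less even. Igsf6, an immunoglobulin superfamily receptor of myeloid cells, was at 758, 939 and 217 CPM in knockout and 204, 86.6 and 69.5 CPM with itaconate (-2.41 ± 0.57; DESeq2 adjusted p = 0.0146). Knockout replicate 3 was close to itaconate replicate 1, its partner in pool 2, where the log2 ratio was -0.09. Dnajc9, a histone co-chaperone, had the same shape, at 38.6, 24.0 and 12.1 CPM against 11.1, 4.39 and 2.75 CPM (-2.03 ± 0.49; within pool 2, -0.12). Uchl5, a deubiquitinase of the proteasome, was at 58.1, 62.6 and 35.6 CPM against 20.4, 25.9 and 16.0 CPM (-1.33 ± 0.31).

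The rest of the 12 lower genes were Fez2, the Mediator subunit Med7, the chemokine gene Cxcl9, the mitochondrial gene mt-Nd4l, Rbm19 and Noc3l, which take part in ribosome assembly, Ms4a14, and Fnbp1, a membrane-bending F-BAR protein. Fnbp1 was at 404, 209 and 162 CPM in knockout and 68.3, 120 and 110 CPM with itaconate (-1.38 ± 0.36). Ms4a14 was -1.53, and -0.81 without knockout replicate 1. Another 3 genes with few reads complete the DESeq2 calls. Eefsec, the selenocysteine elongation factor, was at 7.09, 8.92 and 6.89 CPM against 2.49, 2.41 and 1.27 CPM. Mcf2l, a guanine nucleotide exchange factor, was at 7.28, 5.60 and 2.76 CPM against 0.554, 0 and 0.635 CPM. Cbarp had 63 reads over the knockout libraries and 0 over the itaconate libraries, which at a floor of 3 reads over the group makes it at least 14.1-fold lower.

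The medians of these 24 genes, which were picked for their difference, were 1.42 on the higher and -1.40 on the lower side. With the pool as a term, 1 library against 1, they were 0.62 and -0.83. The mean WT level, on the log2(CPM + 1) scale, was nearer knockout than itaconate for all 12 higher genes, and nearer itaconate than knockout for 9 of the 12 lower genes, the exceptions being Igsf6, Dnajc9 and mt-Nd4l. The choice of genes rested on the knockout values too, so these counts are a description.

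**Figure D3:**
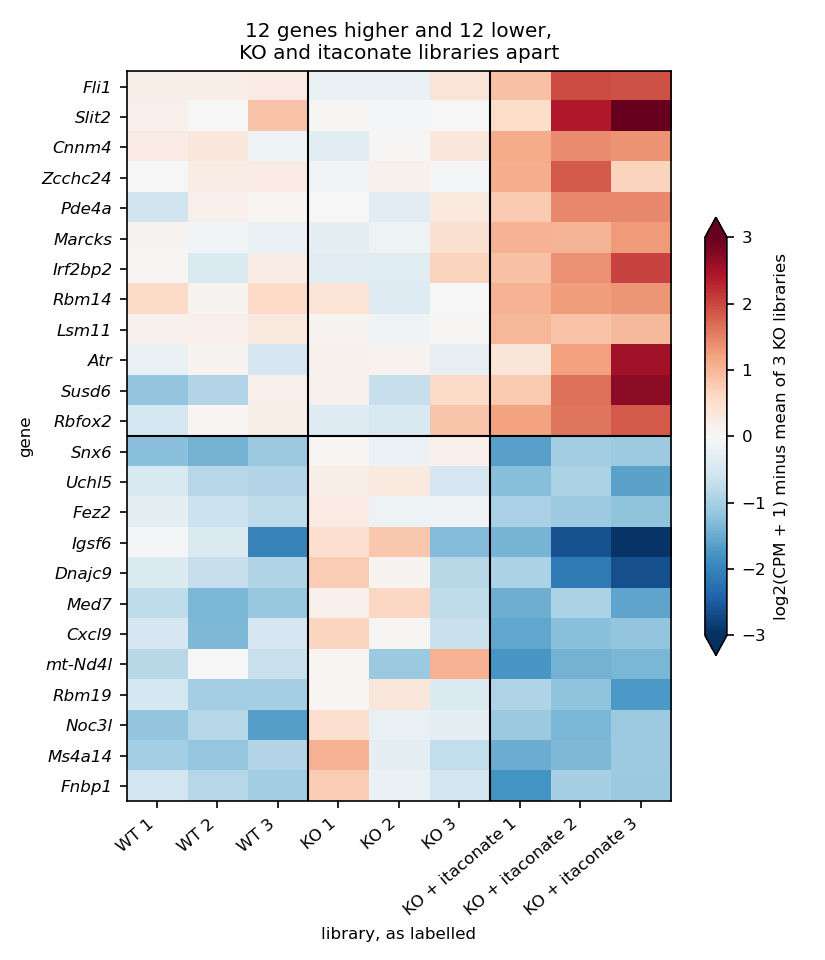
Level of the 12 higher and 12 lower genes in each of the 9 libraries, as the difference of log2(CPM + 1) from the mean of the 3 knockout libraries (colour, capped at 3 either way). The itaconate columns are red for all 12 higher and blue for all 12 lower genes, and Igsf6 and Dnajc9 are already bluer in knockout replicate 3 than in the other knockout columns.

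Macrophages restrain LPS signalling with inducible inhibitors, among them A20 (Tnfaip3), IκB proteins, dual-specificity phosphatases and RNA-decay factors. Of 29 such negative regulators tested, 21 were higher and 8 lower with itaconate. Their median log2 fold change was 0.36 against -0.02 for all genes. Acod1 itself appears to be among the 29, counted as higher at 0.53 ± 2.35. The list's summed level was 8647, 8821 and 11010 CPM in replicate 3 of WT, knockout and itaconate, the libraries with high Acod1. Elsewhere it was 3650 to 4677 CPM. Unadjusted p was under 0.05 for 6 higher (20.7%) and 2 lower (6.90%) members, where the shares over all genes were 4.19% and 4.11%. No member passed the adjusted test. The median was 0.265 without replicate 3 of each group, 0.147 without knockout replicate 1, and 0.0059 in pool 2.

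Tnfaip3 (chromosome 10, 19000910-19015657, minus strand) encodes A20, a ubiquitin-editing enzyme that ends NF-κB activation. It was at 16.6, 28.2 and 44.0 CPM in knockout and 61.6, 57.0 and 118 CPM with itaconate. The lowest itaconate library was above the highest knockout library, though within pool 2 the log2 ratio was only 0.48. The log2 fold change was 1.42 ± 0.39 (edgeR unadjusted p = 0.00222, adjusted p = 0.507). Dusp5, a phosphatase of ERK, was at 9.92, 10.7 and 24.0 CPM against 30.2, 22.6 and 55.6 CPM (1.29 ± 0.41). Rc3h1 encodes Roquin, which degrades cytokine transcripts, and was at 90.3, 81.7 and 148 CPM against 108, 204 and 484 CPM. Its log2 fold change was 1.31, and 0.54 without itaconate replicate 3.

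Nfkbie, which encodes IκBε, had the largest fold of the list (2.02 ± 0.93) from 1 library. Its 6 levels were 24.6, 30.3 and 29.6 CPM against 18.9, 292 and 32.4 CPM. The high value is itaconate replicate 2, and the next highest value of the series, 272 CPM, is WT replicate 3, the library with the same barcode. Without itaconate replicate 2 the log2 fold change was -0.14. The part of the shared barcode was not tested. Zfp36, a decay factor for AU-rich transcripts, was at 49.9, 64.4 and 132 CPM against 149, 146 and 134 CPM, with knockout replicate 3 near the itaconate level. On the lower side were Socs3, an inhibitor of cytokine receptor signalling, at 173, 270 and 172 CPM against 149, 113 and 80.3 CPM (-0.84 ± 0.33), and Irak3, at 812, 296 and 276 CPM against 215, 278 and 276 CPM. Irak3 was -0.85, and -0.16 without knockout replicate 1.

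The chemokines CXCL9, CXCL10 and CXCL11 share the receptor CXCR3 and are classed as interferon-inducible. Cxcl9 (chromosome 5, 92321347-92328079, minus strand) was at 447, 292 and 181 CPM in knockout and 97.4, 119 and 126 CPM with itaconate. All itaconate libraries were below all knockout libraries. The log2 fold change was -1.43 ± 0.35 (edgeR unadjusted p = 0.00101, adjusted p = 0.507), and within pool 2 it was -0.88. Cxcl10 was at 43.7, 88.7 and 431 CPM against 304, 229 and 231 CPM (0.44 ± 0.71, unadjusted p = 0.546), and Cxcl11 at 2.83, 7.26 and 14.7 CPM against 23.9, 19.2 and 15.1 CPM (1.25 ± 0.71). For Cxcl10 the highest of the 6 libraries was knockout replicate 3, and its log2 fold change was -0.03 without knockout replicate 1 and -0.50 within pool 2. Whether Cxcl9 and the other 2 differed from each other was not tested. Without the 4 libraries that contradict their Acod1 label, edgeR called Cxcl9 lower (-1.80, adjusted p = 0.0166) and Cxcl10 and Cxcl11 higher (1.98 and 2.09, adjusted p = 0.0155 and 0.0171).

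The promoters of Cxcl9, Isg15 and Tnfaip3 are shown because these genes of the LPS and interferon response had fitted differences of both signs. They are RefSeq sequences of GRCm38.p6, each 300 bases from 250 before the start site to 50 after it, read on the minus strand of the genome, 5′ to 3′. Capitals mark matches, on either strand, to the NF-κB motif (GGGNNTTCC or GGGNNNTTCC) or to the interferon-stimulated response element (GAAANNGAAA), and matches that overlap run together.
Cxcl9, chr5:92328030-92328329: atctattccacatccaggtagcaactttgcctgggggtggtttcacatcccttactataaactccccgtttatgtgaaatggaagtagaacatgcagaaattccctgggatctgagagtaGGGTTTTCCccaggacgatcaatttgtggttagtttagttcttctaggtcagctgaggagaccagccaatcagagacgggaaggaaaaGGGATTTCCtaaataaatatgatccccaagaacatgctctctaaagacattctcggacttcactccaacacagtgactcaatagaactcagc
Isg15, chr4:156200769-156201068: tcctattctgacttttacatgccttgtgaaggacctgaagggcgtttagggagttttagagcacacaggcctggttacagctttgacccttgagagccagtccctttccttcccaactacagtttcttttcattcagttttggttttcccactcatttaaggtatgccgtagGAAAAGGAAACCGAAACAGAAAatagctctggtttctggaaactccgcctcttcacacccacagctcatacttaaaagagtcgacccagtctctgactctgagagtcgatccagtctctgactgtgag
Tnfaip3, chr10:19015361-19015660: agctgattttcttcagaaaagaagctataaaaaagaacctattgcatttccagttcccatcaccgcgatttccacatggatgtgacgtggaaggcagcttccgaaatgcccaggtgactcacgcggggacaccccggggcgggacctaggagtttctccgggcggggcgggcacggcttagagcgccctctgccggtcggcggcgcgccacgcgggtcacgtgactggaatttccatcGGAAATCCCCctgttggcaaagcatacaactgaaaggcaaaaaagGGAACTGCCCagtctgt
Start sites are those of RefSeq. For Tnfaip3 it lies inside the gene span given above, whose annotated start is farther upstream and near the first base of the window, so most of this window is within that span. The Cxcl9 window held 2 matches to GGGNNTTCC, the first beginning 130 bases and the second 42 bases before the start site. The Tnfaip3 window held 3 NF-κB matches, 2 of them the shorter and longer spelling of the same place 12 bases before the RefSeq start site and the third after it. In Isg15, 3 overlapping response-element matches lay 78 to 66 bases before the start. Of 32851 promoters of this length, 9.74% held an NF-κB match in either spelling and 3.44% held a response-element match. The Cxcl9 and Tnfaip3 windows held 0 response-element matches. The interferon-γ-activated site (TTCNNNGAA) was also searched, with 0 matches in each of the 3 windows and a match in 8.3% of promoters.

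Type I interferon-stimulated genes were split, with 26 of 55 higher and 29 lower. Their median was -0.05, but 0.114 without knockout replicate 3 and 0.056 without itaconate replicate 3. The unadjusted p was under 0.05 for 4 higher (7.27%) and 3 lower (5.45%), against 4.19% and 4.11% of all genes. Isg15, a ubiquitin-like modifier, was at 41.8, 60.3 and 141 CPM in knockout and 134, 222 and 183 CPM with itaconate. Knockout replicate 3 lay within the itaconate values, and the log2 fold change of 1.15 ± 0.43 (unadjusted p = 0.0166) became -0.07 in pool 2 and 1.81 without knockout replicate 3. Bst2, the virus-tethering protein tetherin, was at 79.8, 117 and 164 CPM against 218, 245 and 201 CPM (0.88 ± 0.31), with no overlap. Sp110 was at 48.7, 54.6 and 35.8 CPM against 36.3, 25.0 and 18.6 CPM (-0.80 ± 0.33). Ifit1, which binds viral RNA, overlapped between groups, at 1282, 1661 and 2445 CPM against 2202, 1547 and 1154 CPM. Ifnb1, the interferon-β gene itself, was too low to test, with 0, 4 and 6 reads in knockout and 17, 6 and 22 reads with itaconate.

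Interferon-γ-inducible genes were 17 higher and 12 lower of 29 tested (median 0.17, and -0.014 in limma-voom with quality weights). Unadjusted p was under 0.05 for 0 higher and 2 lower (6.90%, against 4.11% of all genes), Cxcl9 and Cd274. Cd274 encodes the checkpoint ligand PD-L1 and was at 713, 248 and 463 CPM in knockout and 213, 153 and 252 CPM with itaconate (-1.20 ± 0.36, unadjusted p = 0.00439), with a small overlap. Among MHC class I and antigen-processing genes, 11 of 20 were higher. An unadjusted p under 0.05 was reached by 2 higher (10%, against 4.19% of all genes) and 0 lower. H2-K1, a class I heavy chain with near-identical relatives among which reads may be shared, was at 950, 1364 and 1967 CPM against 2273, 2485 and 2646 CPM (0.79 ± 0.30). B2m, the light chain, was at 3465, 5264 and 7293 CPM against 20620, 6785 and 5736 CPM. Itaconate replicate 1 alone set its log2 fold change of 1.05, which was 0.23 without it. MHC class II and costimulation genes were lower in 8 of 10, with 0 at an unadjusted p under 0.05.

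Among the receptors and adaptors that sense LPS and nucleic acids, 11 of 26 tested were higher and 15 lower (median -0.12, and 0.039 without knockout replicate 1). At an unadjusted p under 0.05 were 2 members (7.69%) in each direction, against 4.19% higher and 4.11% lower over all genes. These members were Tlr3 and Tlr9 on the higher side and Irak3 and Myd88 on the lower. The endosomal receptors Tlr3, for double-stranded RNA, and Tlr9, for CpG DNA, did not overlap between groups. Tlr3 was at 10.5, 16.9 and 19.6 CPM in knockout and 23.2, 27.4 and 43.2 CPM with itaconate (1.00 ± 0.35, unadjusted p = 0.0115). Tlr9 was at 75.2, 81.6 and 87.1 CPM against 119, 179 and 107 CPM (0.73 ± 0.31, unadjusted p = 0.0313). Myd88, the adaptor of most Toll-like receptors, overlapped between groups, at 69.6, 168 and 85.5 CPM against 77.5, 65.5 and 44.5 CPM (-0.78 ± 0.34, unadjusted p = 0.0372), and was -0.31 without knockout replicate 2. The 2 lower members without overlap were Tbk1 and Ikbke, kinases that activate IRF3, at -0.52 ± 0.31 and -0.42 ± 0.28.

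**Figure D4:**
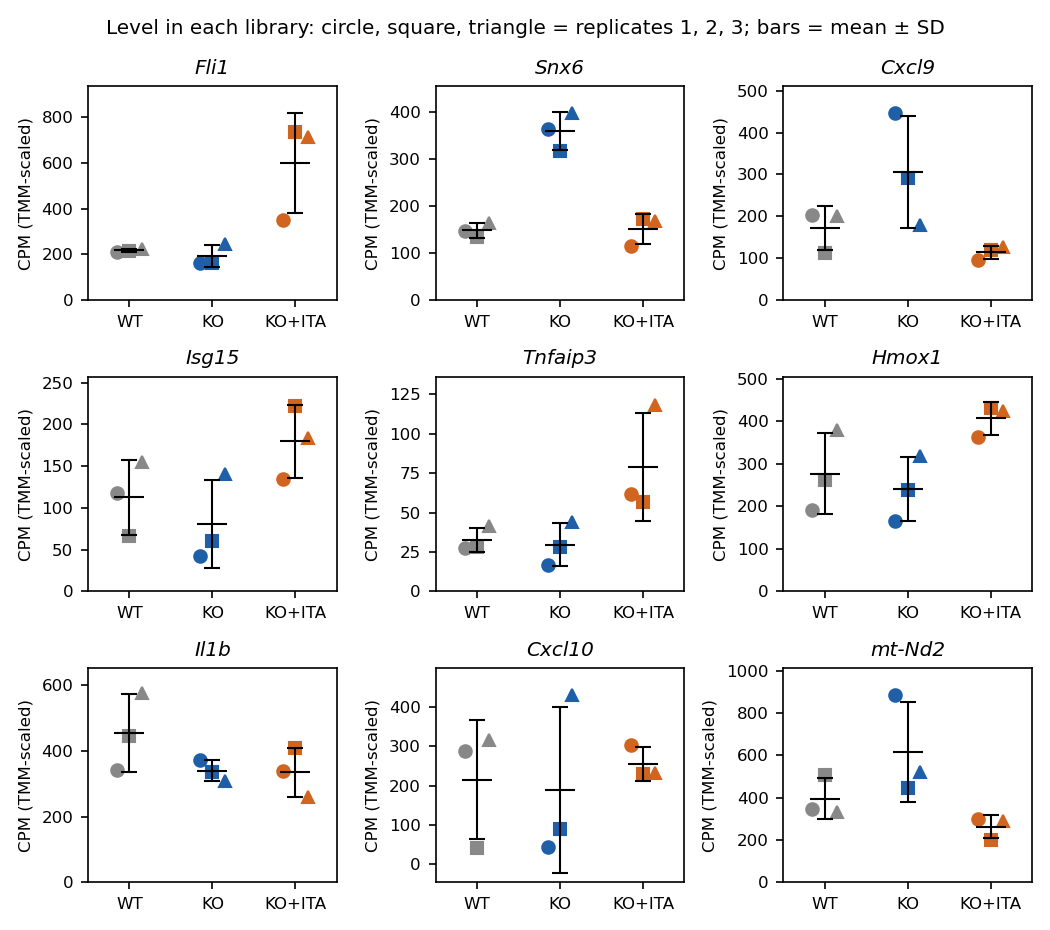
Levels of 9 genes in each library, in TMM-scaled CPM (vertical axis), by labelled group; circle, square and triangle are replicates 1, 2 and 3, and bars are the mean ± SD of 3 libraries. Fli1, Snx6, Cxcl9, Tnfaip3, Hmox1 and mt-Nd2 have no overlap between KO and KO+ITA, whereas Isg15, Cxcl10 and Il1b overlap.

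Cytokine genes often studied with itaconate overlapped between groups. Il1b, the interleukin-1β gene, was at 373, 335 and 309 CPM in knockout and 338, 407 and 259 CPM with itaconate, a log2 fold change of -0.02 ± 0.28 (unadjusted p = 0.948). Il6 was barely detected, at 3.23, 1.13 and 4.82 CPM against 3.14, 1.43 and 4.12 CPM (-0.07 ± 0.67). Tnf was at 15.1, 26.4 and 45.3 CPM against 29.8, 46.2 and 38.9 CPM (0.41 ± 0.39), and Il12b was -0.24 ± 0.40. Il10, an anti-inflammatory cytokine gene with 15 to 47 reads per library, was at 1.66, 3.18 and 1.48 CPM against 3.69, 1.75 and 4.97 CPM (0.72 ± 0.59, unadjusted p = 0.243). Differences of several standard errors also went uncalled: Fli1, at 1.64 ± 0.32, had an edgeR adjusted p of 0.507. Moderate differences in these cytokine genes are therefore not excluded. The regulators Atf3 (-0.17 ± 0.35) and Nfkbiz, which encodes IκBζ (-0.08 ± 0.27), differed by less than their standard errors.

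Within the whole list of inflammatory cytokines, chemokines and effectors, 19 of 32 tested were higher and 13 lower (median 0.29). At an unadjusted p under 0.05 were 1 higher gene (3.12%) and 2 lower genes (6.25%), against 4.19% and 4.11% of all genes. Nos2, the inducible nitric oxide synthase, was at 112, 68.4 and 139 CPM in knockout and 35.3, 44.1 and 82.0 CPM with itaconate (-0.99 ± 0.41, unadjusted p = 0.0316). Lcn2, an iron-sequestering lipocalin, was at 492, 641 and 377 CPM against 349, 387 and 172 CPM (-0.73 ± 0.33, unadjusted p = 0.0409). Nlrp3, the inflammasome sensor, was at 40.7, 38.0 and 32.0 CPM against 39.8, 88.1 and 52.7 CPM (0.70 ± 0.31, unadjusted p = 0.0383).

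Several chemokine genes of this list turned on knockout replicate 3. The monocyte chemokine gene Ccl2 was at 88.8, 171 and 570 CPM in knockout and 490, 263 and 410 CPM with itaconate. Ccl4 was at 36.8, 53.3 and 132 CPM against 130, 131 and 127 CPM. The neutrophil chemokine gene Cxcl3 was at 9.04, 15.1 and 51.5 CPM against 52.8, 33.1 and 54.7 CPM, and the cytokine gene Osm at 3.27, 3.18 and 11.8 CPM against 10.6, 12.8 and 12.1 CPM. In these 4 genes knockout replicates 1 and 2, both of pool 1, were below all itaconate libraries. Knockout replicate 3, which has high Acod1 and was in pool 2, was at the itaconate level. The part of Acod1 or of the pool was not tested. The median of the list was 0.566 without replicate 3 of each group, and -0.096 in pool 2. In the fit without replicate 3 of each group, 11 of 32 members were higher at an unadjusted p under 0.05. Over all genes it was 691 of 10972. Without the 4 contradicting libraries edgeR called 5 members higher: Ccl2 (1.51, adjusted p = 0.0496), Ccl4 (1.51, 0.0326), Ccl12 (1.48, 0.0339), Cxcl3 (1.81, 0.0177) and Osm (1.83, 0.0345). Over all genes of the same fit, 56 of 11342 were called higher (0.494%). That fit rests on knockout replicates 1 and 2, both of pool 1, against itaconate replicates 1 and 2, of pools 2 and 3, so that pool and treatment cannot be told apart in it.

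AP-1 subunits and other immediate early factors leaned to the higher side. Of 27 tested, 22 were higher (81.5%, against 48.4% of all genes) and 5 lower, with a median of 0.29, and 5 higher (18.5%) and 0 lower members had an unadjusted p under 0.05. Junb, an AP-1 subunit, was at 69.3, 95.9 and 160 CPM in knockout and 186, 254 and 212 CPM with itaconate (1.01 ± 0.32, unadjusted p = 0.00648), and Ier5 at 70.9, 109 and 192 CPM against 194, 262 and 247 CPM (0.92 ± 0.36, unadjusted p = 0.0229). Neither overlapped, although for Ier5 knockout replicate 3 nearly reached the lowest itaconate library. Klf2, a Krüppel-like factor that restrains inflammatory genes, was at 8.01, 9.60 and 7.87 CPM against 15.1, 16.9 and 12.9 CPM (0.82 ± 0.35). Jund was at 201, 81.4 and 235 CPM against 137, 241 and 1044 CPM, so that its log2 fold change of 1.46 was 0.12 without itaconate replicate 3. The list's median was 0.316 without replicate 3 of each group and -0.019 in pool 2.

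NRF2 drives antioxidant and detoxification genes when electrophiles modify its inhibitor KEAP1. Of 32 genes of the NRF2 list tested, which counts Nfe2l2 itself, 20 were higher and 12 lower, with a median of 0.10. In each direction 2 (6.25%) had an unadjusted p under 0.05, against 4.19% higher and 4.11% lower over all genes. Hmox1, heme oxygenase 1, was at 166, 239 and 318 CPM in knockout and 363, 432 and 425 CPM with itaconate (0.76 ± 0.32, unadjusted p = 0.0305). The groups did not overlap, and the pool 2 log2 ratio was 0.19. Nqo1, the quinone reductase, was low, at 2.49, 2.87 and 2.36 CPM against 5.45, 3.29 and 3.07 CPM (0.61 ± 0.47). Mt1, a metallothionein, was at 39.1, 56.2 and 126 CPM against 239, 223 and 66.1 CPM (1.25 ± 0.53, unadjusted p = 0.0323). Without the 4 contradicting libraries it was called higher (2.25, adjusted p = 0.00442).

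Other NRF2 genes were lower or level. Nfe2l2, which encodes NRF2 itself, was at 364, 248 and 405 CPM in knockout and 153, 141 and 240 CPM with itaconate (-0.93 ± 0.30, unadjusted p = 0.00697). The exporter gene Abcc1 was at 275, 76.8 and 143 CPM against 49.0, 60.8 and 129 CPM (-1.06 ± 0.44). Txnrd1, thioredoxin reductase, was -0.71 ± 0.36, and Gclm, for glutathione synthesis, was level, with 719 ± 159 CPM (SD) in knockout and 749 ± 100 CPM with itaconate. The list's median was 0.384 without replicate 3 of each group but -0.058 without knockout replicate 1. Without itaconate replicate 1 it was -0.098, and in the fit with a pool term it was -0.141.

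The integrated stress response acts through ATF4, which induces amino acid transport and synthesis genes. The 34 genes of this list tested, Atf4 itself among them, were 17 higher and 17 lower. Their median was -0.02, and above 0 without knockout replicate 3 or any 1 itaconate library. In each direction 1 gene (2.94%) had an unadjusted p under 0.05, Cebpb higher and Atf4 lower. Over all genes the shares were 4.19% and 4.11%. Atf4 was at 380, 1227 and 467 CPM in knockout and 324, 328 and 361 CPM with itaconate (-1.03 ± 0.38, unadjusted p = 0.0158). The groups did not overlap, but knockout replicate 2 carried most of the difference, and without it the value was -0.33. Slc7a11, the cystine importer, was at 62.0, 65.5 and 135 CPM against 93.0, 110 and 227 CPM (0.72 ± 0.44). Cebpb, a bZIP factor of inflammatory genes, was at 342, 607 and 1746 CPM against 1961, 1506 and 1987 CPM (1.02 ± 0.45). As with the chemokines, knockout replicate 3 stood at the itaconate level, and without it the log2 fold change was 1.93.

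The mitochondrial genome encodes 13 subunits of respiratory complexes I, III, IV and V, and 11 of them were lower with itaconate (median -0.517). At an unadjusted p under 0.05 there were 0 higher and 5 lower (38.5%, against 4.11% of all genes), and the groups did not overlap for those 5. They were 4 subunits of complex I and mt-Cytb of complex III. mt-Nd5 was at 602, 335 and 481 CPM in knockout and 163, 90.0 and 130 CPM with itaconate, a 3.70-fold lower level (-1.89 ± 0.51, unadjusted p = 0.00208). Its WT libraries were far apart, at 906, 261 and 162 CPM, and the lowest of them lay within the itaconate values. mt-Nd2 was at 886, 445 and 521 CPM against 298, 200 and 290 CPM (-1.23 ± 0.32, unadjusted p = 0.00165). mt-Nd4 was at 877, 899 and 1574 CPM against 592, 547 and 359 CPM (-1.16 ± 0.33, unadjusted p = 0.00323).

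mt-Nd4l, whose coding sequence overlaps that of mt-Nd4 (mitochondrial positions 9877-10173 and 10167-11544), was at 376, 167 and 750 CPM in knockout and 108, 135 and 139 CPM with itaconate. It was a DESeq2 call (-1.75, adjusted p = 0.0488), and without knockout replicate 3 its edgeR log2 fold change was -1.11 in place of -1.76. mt-Cytb was at 558, 818 and 427 CPM against 413, 418 and 96.9 CPM (-0.96 ± 0.44). In mt-Nd1, mt-Nd3, mt-Co2 and mt-Co3 the low library was itaconate replicate 3: mt-Co2 was at 2034, 2405 and 2051 CPM against 2303, 1887 and 669 CPM (-0.42 ± 0.36). mt-Atp8 and mt-Nd6 were the 2 higher members, at 0.11 ± 0.31 and 0.49 ± 0.58.

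The mitochondrially encoded share of each library moved with this result. The 13 genes made up 1.72% to 2.21% of gene reads in the knockout libraries and 1.73%, 1.27% and 0.709% in itaconate replicates 1, 2 and 3. The part of RNA quality or capture in this share was not tested. Without itaconate replicate 3 the median of the list was -0.331 and 12 of 13 were lower. In pool 2 it was 0.042, while mt-Nd5, mt-Nd2 and mt-Nd4 kept log2 ratios of -1.55, -0.80 and -1.41. Of 70 nuclear-encoded respiratory subunits 28 were higher and 42 lower (median -0.08). Unadjusted p was under 0.05 for 2 higher (2.86%) and 1 lower (1.43%), against 4.19% and 4.11% of all genes. The median of the 70 was 0.102 without itaconate replicate 3 and 0.0020 without knockout replicate 3.

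Enzymes of the TCA cycle, succinate oxidation and itaconyl-CoA handling were 13 higher and 21 lower of 34 (median -0.23, and 0.080 without replicate 3 of each group). Unadjusted p was under 0.05 for 2 in each direction (5.88%), against 4.19% higher and 4.11% lower over all genes. Mut, the methylmalonyl-CoA mutase, was at 78.0, 83.0 and 71.1 CPM in knockout and 88.1, 176 and 219 CPM with itaconate (1.06 ± 0.33, unadjusted p = 0.00627), with no overlap. Ogdh, of the 2-oxoglutarate dehydrogenase complex, was at 96.5, 113 and 127 CPM against 134, 206 and 219 CPM (0.73 ± 0.28, unadjusted p = 0.0195). Clybl, a lyase that clears citramalyl-CoA on the way of itaconate breakdown, was at 23.2, 33.6 and 24.0 CPM against 16.0, 11.0 and 17.3 CPM (-0.87 ± 0.36, unadjusted p = 0.0307), and Idh3a was at 14.9, 50.3 and 16.8 CPM against 13.8, 10.4 and 13.8 CPM. Idh3a was -1.11, and -0.32 without knockout replicate 2.

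The succinate dehydrogenase subunits, the enzyme that itaconate inhibits, differed by less than their spread for Sdha (69.3 ± 6.94 CPM in knockout, 70.9 ± 21.8 CPM with itaconate; SD) and Sdhb (78.6 ± 9.84 and 65.4 ± 32.1 CPM). Glycolysis and HIF-1 targets were 12 higher and 18 lower of 30, with a median of -0.05 (0.0043 without itaconate replicate 3) and 0 at an unadjusted p under 0.05 in either direction. Ldha was at 319, 546 and 490 CPM against 534, 464 and 250 CPM, and Hif1a was 0.35 ± 0.30. Genes of arginine and nitric oxide metabolism were 7 higher and 11 lower of 18, and Arg1 was at 3268, 3051 and 2478 CPM against 3803, 4660 and 2378 CPM (0.30 ± 0.28). Alternative activation genes were 4 higher and 5 lower of 9.

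**Figure D5:**
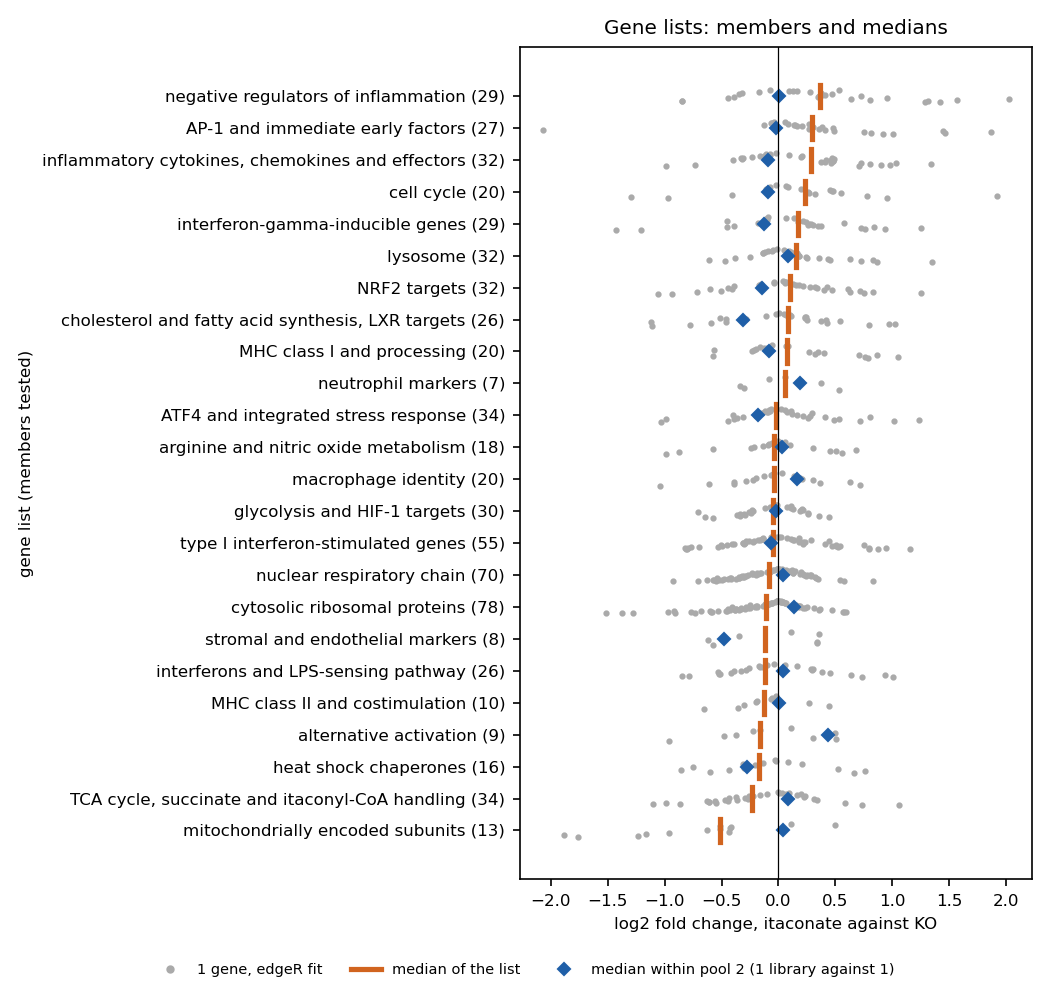
Log2 fold change, itaconate against knockout (horizontal axis), of the tested members of 24 gene lists (vertical axis, with the number tested); grey points are genes, the orange bar is the list's median over all libraries and the blue diamond its median log2 ratio within pool 2, itaconate replicate 1 against knockout replicate 3. The medians run from -0.517 for the mitochondrially encoded subunits to 0.36 for the negative regulators, and both of these lists are near 0 within pool 2, where the knockout library is the one with high Acod1.

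Among housekeeping groups, cytosolic ribosomal proteins were 26 higher and 52 lower of 78 (median -0.11). Unadjusted p was under 0.05 for 0 higher and 5 lower (6.41%, against 4.11% of all genes). Ribosomal protein genes have near-identical processed copies, so reads that did not align uniquely would be lost. The lowest, Rpl35, was at 81.3, 19.6 and 14.9 CPM in knockout and 13.5, 11.8 and 15.3 CPM with itaconate. Knockout replicate 1 alone was high, and without it the log2 fold change of -1.51 was -0.35. Rps7 and Rpl17 had the same shape, and the list's median was 0.068 without itaconate replicate 3.

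Lysosomal genes were 21 higher (65.6%, against 48.4% of all genes) and 11 lower of 32 (median 0.16). At an unadjusted p under 0.05 were 0 lower and 3 higher members (9.38%, against 4.19% of all genes): Atp6v1h of the proton pump, Lamp2 of the membrane, and the protease gene Lgmn. Lamp2 was at 788, 647 and 1732 CPM against 840, 1787 and 5435 CPM, and its log2 fold change of 1.35 was 0.31 without itaconate replicate 3. The list's median was -0.025 without knockout replicate 1 and -0.0075 without itaconate replicate 1. Genes of cholesterol and fatty acid synthesis and LXR targets were 16 higher and 10 lower of 26, with 0 higher and 1 lower at an unadjusted p under 0.05.

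Heat shock chaperones were 5 higher and 11 lower of 16. Unadjusted p was under 0.05 for 2 in each direction (12.5%), against 4.19% higher and 4.11% lower over all genes. The HSP90 gene Hsp90ab1 was at 2175, 1932 and 2810 CPM in knockout and 3213, 3261 and 4511 CPM with itaconate (0.67 ± 0.27), while Hspa8, the constitutive HSP70, was at 839, 861 and 734 CPM against 611, 543 and 452 CPM (-0.60 ± 0.25). Neither overlapped. Cell cycle genes were 13 higher and 7 lower of 20. In each direction 1 (5%) had an unadjusted p under 0.05, against the same 4.19% and 4.11% of all genes. The higher one, the cyclin D1 gene Ccnd1, overlapped between groups, at 53.6, 25.1 and 84.0 CPM against 80.3, 99.6 and 135 CPM (0.95 ± 0.42, unadjusted p = 0.0393). The proliferation marker Mki67 was at 22.04, 17.9 and 8.56 CPM against 3.88, 1.75 and 14.2 CPM (-1.30 ± 0.61), and the ribonucleotide reductase gene Rrm1, the lower one, at 39.4, 31.3 and 16.0 CPM against 14.9, 11.3 and 18.2 CPM (-0.97 ± 0.34, unadjusted p = 0.0123). In both, replicate 3 of each group was at odds with the other libraries. Both were called lower by edgeR without the 4 contradicting libraries (-2.83 and -1.46, adjusted p = 0.00442 and 0.0387). Over all genes of that fit, 161 of 11342 were called lower (1.42%).

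Macrophage markers were strong in all 6 libraries, with a summed level of 11870 to 12960 CPM in knockout and 8450 to 13090 CPM with itaconate over 20 genes, and the lowest sum was in itaconate replicate 3. Of the 20, 9 were higher and 11 lower. C1qa, of the complement component C1q, was at 264, 315 and 424 CPM in knockout and 618, 548 and 477 CPM with itaconate (0.71 ± 0.27, unadjusted p = 0.018). Fcgr3, an Fc receptor, was at 581, 499 and 318 CPM against 342, 225 and 113 CPM (-1.04 ± 0.38, unadjusted p = 0.0153).

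Most lymphocyte, dendritic cell, mast cell and erythroid markers were at or near 0 in both groups, whereas several neutrophil and stromal markers were detected in every library. The 14 measured lymphocyte markers summed to 1.57 to 2.99 CPM in knockout and 1.80 to 3.25 CPM with itaconate, with Cd3e, Cd8a, Cd79a, Ncr1, Nkg7 and Gzma at 0 reads in all 6. Dendritic cell markers (12) summed to 11.8 to 14.7 CPM and 6.86 to 12.7 CPM, with Flt3 and Cd209a at 0. Mast cell, basophil and eosinophil markers (10) summed to 16.8 to 43.5 CPM and 26.9 to 37.3 CPM, with 6 of 10 at 0. Neutrophil markers (12) summed to 232 to 306 CPM and 195 to 318 CPM, and stromal and endothelial markers (10) to 205 to 235 CPM and 177 to 274 CPM. Of the neutrophil list, S100a8 was at 113, 147.1 and 137 CPM in knockout and 153.5, 124.1 and 36.59 CPM with itaconate. S100a9 held 359 to 969 reads per library and Mmp8 591 to 1327. Other members of that list were at or near 0, with 0 to 3 reads per library for Ly6g and for Mpo. Stfa2l1 had 0 to 6 reads, Retnlg 0 to 8 and Elane 0 to 11. Of the stromal list, Col1a2 was at 140.2, 104.9 and 107.5 CPM against 92.07, 178.1 and 174.8 CPM. The erythroid and megakaryocyte list (10 genes, Alas2 among those at 0) was 214 to 325 CPM in knockout and 858, 678 and 185 CPM in itaconate replicates 1, 2 and 3. Nearly all of it was Pf4, a chemokine that macrophages also make, at 214, 257 and 325 CPM against 853, 703 and 201 CPM (1.14 ± 0.43, unadjusted p = 0.0179). In bulk libraries, fewer cells of a type and less RNA per cell cannot be told apart.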

How the data were processed

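Poly(A) RNA of 9 libraries was reverse-transcribed with barcoded oligo-dT, pooled and sequenced as strand-specific libraries, per the labels' protocols. The deposited counts are raw reads per gene in 1 table. Per the submitters' processing notes, STAR and HTSeq were used with the build mm10. Tool versions, annotation and strand setting are not given in the sources used here. This table holds 22165 gene rows and 5 summary lines, which were left out of library sizes (23.1% to 33.7% of reads in no gene and 17.1% to 20.0% not unique); 21745 IDs matched a symbol. Gene reads per library ranged from 7361671 to 20430359, and 3 reads correspond to 0.147 to 0.408 CPM. With 3′ priming, counts are not divided by length, and levels are not compared between genes.

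Counts were fitted in edgeR 4.0.16 (R 4.3.3; quasi-likelihood test, two-sided, TMM factors, minimum count 10, group as the only term, all 9 libraries), with Benjamini-Hochberg adjustment over the 10781 genes tested and a threshold of 0.05. Each ± after a log2 fold change is the standard error. CPM are reads per 1000000 gene reads after TMM scaling. The scripts were tested on simulated data. Alternatives were DESeq2 1.42.0, limma-voom (limma 3.58.1) with and without quality weights, other scalings and filters, a replicate block, a pool term, leaving out each replicate, and leaving out the libraries whose Acod1 reads contradict their label.

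The genes named are Acod1; any edgeR call; the 12 genes of smallest p in each direction with at least 10 CPM and no overlap between groups; all mitochondrially encoded genes and the 3 of smallest p of each of 30 lists; a panel of 22 genes; and the DESeq2 calls. The members and lists were chosen with earlier results of these data known. Genes named outside this rule, chosen after their values were seen, are Ccl2, Ccl4, Ccl12, Cxcl3, Cxcl11, Osm, Zfp36, Nfkbie, Mt1, Socs3, Klf2, Ifit1, Clybl, Ldha, Myd88, Tbk1, Ikbke, and those in the closing observations. Gene positions are from GENCODE vM21 (GRCm38) and promoters from RefSeq (GRCm38.p6).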

Additional observations from a re-analysis of the deposited data

How the results depend on the processing

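The count of 0 edgeR calls stood in 18 of 22 alternatives. It was 80 with no filter on low counts (54 higher and 26 lower, 33 of them below the filter over all 9 libraries, and 43 of the 54 with itaconate replicate 3 as the highest library), 12 in DESeq2 and 217 without the 4 libraries against their Acod1 label, and ranged from 0 to 6 when 1 replicate of any group was left out. With low counts kept, Cxcl9, mt-Nd4l, mt-Nd5, Rpl35 and Tnfaip3 were among the calls (adjusted p = 0.0162, 0.0032, 0.0032, 0.0402 and 0.0314). The largest shift of the median over all genes by a scaling was -0.0763, with gene-read totals. Every listed setting was run, and no other was added.

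The labels do not state whether equal replicate numbers mark paired samples. The deviations of same-numbered knockout and itaconate libraries from their group means correlated by -0.201, 0.222 and 0.0179. Not every library correlated best with its own number. With 3 libraries in a group the deviations depend on each other, so these values cannot decide whether the samples are paired. With a replicate block there were 0 calls (smallest adjusted p = 0.109), 870 genes had an unadjusted p under 0.05, of which 727 were shared, and Acod1 turned to -0.51.

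Among the genes named, these log2 fold changes turned sign; the cause was not tested. With the pool as a term they were Abcg1 -0.64, Acod1 -8.99, Atp6v1h -0.0083, Ccl12 -0.017, Ccl2 -0.22, Ccl4 -0.023, Ccnd1 -0.065, Cd4 0.43, Cd83 -0.68, Cnpy3 0.43, Col1a2 -0.22, Cxcl10 -0.51, Dcn -0.17, Ddx3y -0.49, Eif2s3y -0.62, Fcgr3 0.11, Gclm -0.29, H2-Ab1 0.33, Hif1a -0.31, Hsp90aa1 -0.20, Il1b 0.13, Isg15 -0.068, Jund -0.78, Kdm5d 0.23, Lamp2 -1.04, Nfkbie -0.65, Osm -0.15, Pgk1 0.50, Rc3h1 -0.47, S100a8 0.16, Sdhb 0.13, Slc7a11 -0.54, Sp110 0.019, Tap2 -0.095, Tnf -0.60, mt-Atp6 0.62, mt-Co2 0.17, mt-Co3 0.042, mt-Nd1 0.22 and mt-Nd3 0.27. Without replicate 3 of both groups they were Acod1 -1.07, Ddx3y -0.11, Fscn1 0.18, Hif1a -0.043, Il12b 0.097, Il1b 0.056, Il6 0.040, S100a8 0.080, Sdhb 0.14, mt-Atp8 -0.029 and mt-Nd6 -0.60. Without the 4 libraries against their Acod1 label they were Acod1 -1.07, Ddx3y -0.12, Fscn1 0.18, Hif1a -0.054, Il12b 0.092, Il1b 0.045, Il6 0.041, S100a8 0.069, Sdhb 0.13, mt-Atp8 -0.037 and mt-Nd6 -0.61. In limma-voom they were Acod1 -0.96, Cd79b -0.47, Il6 0.072 and Sdha -0.013. With quality weights they were Acod1 -2.92, Ddx3y -0.027, Fscn1 0.067, Il1b 0.12, Il6 0.15, Nfkbiz 0.0018 and mt-Nd6 -0.23. With gene-read totals they were Gclm -0.016 and Sdha -0.036. With upper-quartile scaling it was Il1b 0.011.

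Leaving out 1 replicate at a time turned the sign of another set, whose values ranged for Acod1 from -8.24 to 7.72, Atf3 from -0.59 to 0.026, Cd4 from -0.63 to 0.080, Cd79b from -0.35 to 0.76, Cd83 from -0.17 to 0.76, Cxcl10 from -0.031 to 1.94, Ddx3y from -0.19 to 0.73, Gclm from -0.096 to 0.21, Hif1a from -0.024 to 0.60, Il12b from -0.50 to 0.28, Il1b from -0.19 to 0.12, Il6 from -0.47 to 0.39, Itgax from -0.60 to 0.11, Nfkbie from -0.14 to 2.52, Nfkbiz from -0.22 to 0.085, S100a8 from -0.72 to 0.061, Sdha from -0.16 to 0.25, Sdhb from -0.69 to 0.038, mt-Atp8 from -0.024 to 0.34 and mt-Nd6 from -0.45 to 0.82. Depth limits genes near 1 CPM, such as Slit2 and Mcf2l.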

Other observations

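A search for genes of at least 10 CPM that stood at least 2-fold above the next of the 9 libraries found 154 in itaconate replicate 3 and 73 in knockout replicate 1, against 0 to 14 in each of the other 7 libraries. Of these, 45 of the 154 and 29 of the 73 had an unadjusted p under 0.05 between knockout and itaconate in edgeR. Over all genes tested that share was 8.3%. The genes were picked for 1 extreme library of the groups compared, so these counts are a description. Itaconate replicate 3 was also at least 2-fold below every other library for 218 genes, and each other library for 0 to 3.

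The same search for pairs of libraries that stood above the other 7 found 15 genes for WT replicate 3 and itaconate replicate 2, which share the barcode gcacatct in pools 1 and 3. The other 35 pairs gave 0 to 23 genes, with a median of 0, and the highest number belonged to knockout replicate 1 with itaconate replicate 3. Cyth4, which activates ARF GTPases, was at 1468 CPM in WT replicate 3 and 2259 CPM in itaconate replicate 2, and at 328 to 545 CPM in the other 7. Vwa5a was at 549.5 and 606 CPM against 120 to 203 CPM, Smcr8, a partner of C9orf72 in autophagy, at 174 and 229 CPM against 35.8 to 66.0 CPM, and Hibch, an enzyme of valine breakdown, at 38.7 and 40.1 CPM against 4.92 to 9.73 CPM. Kpna2, an importin, was at 13.7 and 19.3 CPM against 0.48 to 6.77 CPM. Of the 15 genes, 5 had an unadjusted p under 0.05 between knockout and itaconate, where the share over all genes tested was 8.3%. Itaconate replicate 2 is 1 of the libraries compared, so this count is a description. The part of the shared barcode was not tested.

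Genes standing apart in itaconate replicates 2 and 3 together were Fli1, Pcolce2, Tmc2 and Gm10800. Pcolce2, an enhancer of procollagen processing, was at 22.9 and 40.1 CPM there, 1.02 CPM in itaconate replicate 1 and 1.18 to 2.44 CPM in knockout. Tmc2, a channel protein of hair cells, was at 14.9 and 16.6 CPM there, 0.0924 CPM in itaconate replicate 1 and 0.635 to 1.67 CPM in knockout.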
